A study of Mus musculus with 8 samples.

Results

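The insulin-like growth factors, their receptors and their binding proteins were followed in the lungs of newborn mice given retinoic acid, dexamethasone or both. The set named 10 genes: the ligands Igf1 and Igf2, the receptors Igf1r and Igf2r, and the binding proteins Igfbp2, Igfbp3, Igfbp4, Igfbp5, Igfbp6 and Igfbp7. Its members were the probe sets whose symbol in the annotation of the array was on that list, whatever their signal. These came to 14 probe sets of 9 genes, out of 12422 probe sets and 8251 genes on the array. The probe set annotated to Igfbp5 also carried the symbol of another gene, so no value is given for Igfbp5.

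Igf1 and Igf2 are secreted growth factors that act through the tyrosine kinase receptor encoded by Igf1r, which signals through insulin receptor substrates to PI3 kinase and AKT. Igf2r binds Igf2 and carries it to lysosomes for breakdown. The binding proteins hold most of the extracellular ligand, limiting or prolonging its access to the receptor, and proteases release it again. In the lung these factors are known for their part in growth before and after birth, including the mesenchyme from which new alveolar walls form.

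RNA of whole lung was measured on 8 Affymetrix mouse arrays, 2 arrays, lettered a and b, in each of 4 groups that crossed 2 treatments. Mice received oil or retinoic acid, which is made from vitamin A, on day 3 after birth, and then saline or the synthetic glucocorticoid dexamethasone on day 4. The Dex group had dexamethasone without retinoic acid, the RA group retinoic acid without dexamethasone, and the RA-Dex group both. The Dil group, whose name the labels do not define, was taken as the oil and saline arm because it is the only arm left. The sources used here do not give strain, sex, dose or time of lung collection, nor whether a and b were separate animals, pools or repeat hybridizations. The p-values therefore measure only the spread between these arrays, which may be technical.

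The 8 arrays had been scaled to a common level, with trimmed means between 800.41 and 800.44 and median signals between 317.3 and 342.7. Arrays of the same group correlated at 0.964 to 0.975 across probe sets, and those that shared only the day 4 treatment at 0.958 to 0.976. Those that differed in the day 4 treatment correlated at 0.951 to 0.966, which overlaps both ranges. Among known glucocorticoid targets, 7 of 7 tested genes (of 8 listed) rose with dexamethasone, where 4.26% of all probe sets were called as higher. Among them were Fkbp5, by 2.39 ± 0.11, and Zbtb16, by 3.97 ± 0.14 (SE, log2 scale). The listed target Tsc22d3 was too low in signal to be tested. Sums of marker signals showed that the Dil arrays carried more muscle transcript than the others. For skeletal muscle markers (23 markers) the summed signal was 12090 to 13380 in Dil, 6368 to 8332 in Dex, 8060 to 8407 in RA and 7202 to 7594 in RA-Dex. Both Dil arrays exceeded all the others for 7 of those 23 markers, where 6.2% of all tested probe sets did so. The marker counts in this paragraph include markers too low in signal to be tested, so their base differs from that share. Tested were 11 of these 23 markers, 7 of the 8 heart muscle markers and 7 of the 16 squamous ones. Of the muscle factors listed, Myf5 was under a signal of 85.3, taken as the floor, on every array. Myod1, at 294.9 to 583.9, and Myog, at 178.4 to 617.4, were above it on every array. Myf6 was above it only on Dil b, at 177.4, and Dex a, at 114.2. For heart muscle (8 markers, none at the floor throughout) the sums were 25040 to 26160 in Dil and 16700 to 21400 elsewhere, with both Dil arrays highest for 4 markers. Both were also highest for 4 of 16 squamous epithelium markers, among them Krt4, at 4679.6 and 2553.2 against 898.5 to 1968.4. The squamous sums overlapped, at 34360 and 39200 in Dil and 24590 to 35020 elsewhere. Sprr1b alone made up most of each sum, at 23413 and 32390 in Dil and 20762 to 30135 elsewhere, so the sums mostly follow this marker. Krt14, Ivl and Krt15 were at the floor on every array.

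The upstream sequence of the genes whose RNA changed is shown first, together with that of Igfbp2, whose RNA did not pass the test. All 10 members had an entry in RefSeq's promoter table (build GRCm38.p6), with 14 start sites in total. Each sequence below is the 250 bases before a start site, printed 5′ to 3′ along the gene. The Igfbp3 window is chr11:7213924-7214173 on the minus strand and the Igfbp6 window is chr15:102143936-102144185 on the plus strand. The Igfbp2 window, chr1:72824230-72824479 on the plus strand, belongs to the upstream one of its start sites. Capitals mark matches to the words searched on both strands: AGAACA, a glucocorticoid receptor core, AGGTCA, a retinoid receptor core, TATAAA, the E-box CACGTG, the GC box GGGCGG, and the paired forms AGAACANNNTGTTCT, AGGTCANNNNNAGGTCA and AGGTCANNAGGTCA.
Igfbp3: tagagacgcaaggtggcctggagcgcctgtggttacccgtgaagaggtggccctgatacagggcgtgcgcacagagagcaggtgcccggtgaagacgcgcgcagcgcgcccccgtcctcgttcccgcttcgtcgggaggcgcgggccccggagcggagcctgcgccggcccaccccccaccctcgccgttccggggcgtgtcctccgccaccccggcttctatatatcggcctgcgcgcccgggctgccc
Igfbp6: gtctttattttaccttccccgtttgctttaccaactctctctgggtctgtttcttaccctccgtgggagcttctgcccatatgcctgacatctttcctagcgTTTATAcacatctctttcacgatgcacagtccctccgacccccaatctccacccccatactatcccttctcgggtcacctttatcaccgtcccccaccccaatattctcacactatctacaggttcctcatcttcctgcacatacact
Igfbp2: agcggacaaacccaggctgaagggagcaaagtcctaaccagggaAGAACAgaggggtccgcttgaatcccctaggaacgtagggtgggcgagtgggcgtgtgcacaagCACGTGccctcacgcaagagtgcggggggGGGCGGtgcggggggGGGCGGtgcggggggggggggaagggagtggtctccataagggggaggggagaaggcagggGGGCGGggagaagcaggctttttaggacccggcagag

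The Igfbp3 window held none of the searched words and had a GC content of 73.2%, against a median of 52.4% over 32851 promoters. The Igfbp6 window was 49.6% GC and held only the TATAAA word, read on the minus strand, 148 bases before the start. The Igfbp2 window held AGAACA 206 bases before the start, the E-box 142 bases before it, and the GC box 113, 98 and 37 bases before it. Over all promoters of this length AGAACA was found in 16.1%, and over the 14 member windows in 2, the other being a start of Igf2. AGGTCA was found in 14% of all promoters and 4 member windows, those of Igf1, Igf1r and Igf2r and the same start of Igf2. TATAAA was found in 12.4% and 2 windows, the E-box in 6.02% and 2, and the GC box in 32.7% and 6. The paired forms, each present in 0.00913% of promoters, were in no member window. These matches describe exact words in a window of 250 bases and nothing further away. Near matches, such as the tatata in the Igfbp3 window, were not marked, so an absent word does not show that a similar one is absent.

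Signals below are on the deposited linear scale, and fold changes are on the log2 scale after signals under a floor of 85.3 were raised to it. A probe set was tested if its mean log2 signal over all 8 arrays exceeded that of a signal of 200.8, which 12 of the 14 member probe sets did, at least 1 for each of the 9 genes. A change was called at an adjusted p under 0.05 in limma, adjusted over all 7309 tested probe sets. Averaged over oil and retinoic acid, dexamethasone raised 2 of the 9 tested member genes, Igfbp3 and Igfbp6, and lowered none, where 7.83% of all probe sets were called, 4.26% as higher and 3.57% as lower. The members' median log2 change was 0.03, against -0.03 for all probe sets. Both called genes encode binding proteins, and no ligand or receptor passed the test in any comparison of the main fit. Binding proteins were not compared as a class with ligands and receptors, and a missed threshold does not show an unchanged level.

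**Figure D1:**
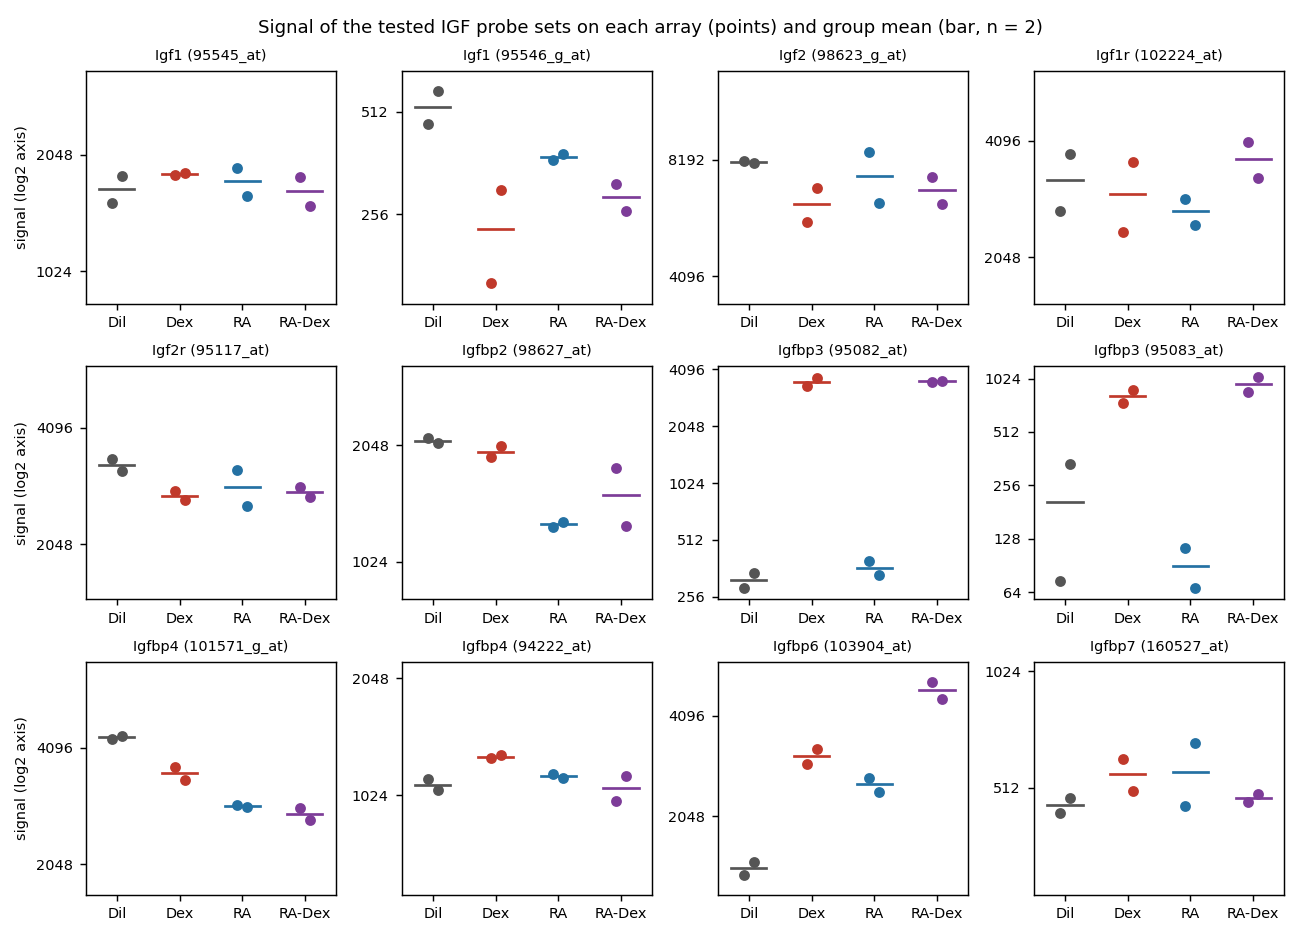
Signal of the tested IGF probe sets on each of the 8 arrays (vertical axes, deposited linear signal drawn on a log scale), grouped as Dil, Dex, RA and RA-Dex; points are arrays and bars are means of 2 arrays. The dexamethasone arrays stand above the others for both Igfbp3 probe sets and for Igfbp6, and Igfbp6 is also higher in RA than in Dil.

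Igfbp3, the main carrier of IGFs in blood and a known glucocorticoid-responsive gene in several tissues, moved the most. On probe set 95082_at the signal was 286 and 342 in Dil and 397 and 334 in RA, against 3321 and 3697 in Dex and 3513 and 3569 in RA-Dex. All 4 dexamethasone arrays lay above all 4 others, while RA overlapped Dil and RA-Dex lay within the range of Dex. The dexamethasone effect of 3.38 ± 0.13 (SE, 95% interval 3.09 to 3.67) ranked 2 among the 7309 probe sets. The change after retinoic acid differed from that without it by -0.20 (95% interval -0.79 to 0.38), which did not pass the test (adjusted p = 0.948) and leaves room for either sign. In whole lung RNA, more or fewer cells of a type and more or less RNA per cell cannot be told apart.

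The other Igfbp3 probe set, 95083_at, read 74.2 and 338 in Dil, 746 and 880 in Dex, 114 and 67.4 in RA and 856 and 1045 in RA-Dex. Its dexamethasone arrays were also all above the rest, but 1 Dil and 1 RA array were under the floor and the other Dil array was higher than any RA array. The fitted effect was 2.76 ± 0.37 (SE, adjusted p = 0.00101) and ranked 8 by size. Raising low signals to the floor limits the size of this fold change, and without the filter on low signal the adjusted p was 0.0742. In Dex against Dil its effect was 2.25 ± 0.52 (SE, adjusted p = 0.0425), and the call was kept in 6 of 13 alternatives. Without Dil a the effect was 1.26 (adjusted p = 0.0914), and the call was also lost without Dex a (0.18), Dex b (0.237), RA-Dex a (0.0872) or RA-Dex b (0.0889), with no intensity trend (0.112) and with no filter (0.329). In RA-Dex against RA it was kept in 11 of 14, and lost without RA-Dex a (0.0529) or RA-Dex b (0.0843) and with no filter (0.157). Over the 8 arrays the log2 signals of the Igfbp3 probe sets correlated at r = 0.924, as a description of arrays that share treatments.

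Igfbp6, a binding protein with a marked preference for Igf2, was the member that was higher with each treatment. Its signal on 103904_at was 1374 and 1502 in Dil, 2933 and 3267 in Dex, 2677 and 2431 in RA, and 5170 and 4596 in RA-Dex. The RA-Dex arrays were the highest and the Dil arrays the lowest, with Dex above RA, and no group overlapped another. Group means were 1438 ± 90.9 in Dil, 3100 ± 236 in Dex, 2554 ± 174 in RA and 4883 ± 406 in RA-Dex (SD, n = 2). The mean in RA-Dex was 3.4 times that in Dil, beside 2.16 times for Dex and 1.78 times for RA.

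Dexamethasone raised Igfbp6 both without retinoic acid, by 1.11 ± 0.15 (SE, adjusted p = 0.00245), and after it, by 0.93 ± 0.15 (SE, adjusted p = 0.00661). The difference between these was -0.17 (95% interval -0.65 to 0.31, adjusted p = 0.948). Retinoic acid, averaged over groups with and without dexamethasone, changed Igfbp6 by 0.74 ± 0.11 (SE, 1.67-fold, adjusted p = 0.0404), the sole member call for retinoic acid. Only 0.15% of all probe sets were called in that comparison, 0.0547% as higher, and Igfbp6 ranked 39 by size of increase. Taken apart, the effect was 0.83 ± 0.15 in RA against Dil (adjusted p = 0.14) and 0.66 ± 0.15 in RA-Dex against Dex (adjusted p = 0.501), neither past the threshold. The averaged call depended on the setting: over 15 alternatives its log2 value ran from 0.66 to 0.78 and its adjusted p from 0.0239 to 0.597, under the threshold in 4. With any array left out except RA b, the call was lost.

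Markers of other cell types also moved with dexamethasone, as Igfbp3 and Igfbp6 did, where 7.83% of all probe sets were called. Of 4 tested alveolar type I markers 2 rose, with a median log2 change of 0.47 and sums of 53600 to 60880 in the dexamethasone arrays against 42550 to 53610 in the others. Of 7 tested lymphocyte markers 3 fell, with a median of -0.55. Their sums were 7986 to 8536 in Dex and 10440 to 12000 in RA-Dex, against 12990 to 15850 in Dil and 10900 to 11650 in RA, and Cd3e and Cd8a were at the floor on every array. Of 8 tested macrophage markers 2 fell, with a median of -0.48 and sums of 11220 to 12530 with dexamethasone against 14150 to 18090 without it, and Itgam was at the floor throughout. Calls were also made in lists of other cell types. Of tested markers, 3 of 11 fell for skeletal muscle, 2 of 7 for smooth muscle, 1 of 11 for endothelium and 1 of 5 for alveolar type II. For airway 1 of 4 rose, and for fibroblasts 1 of 13 rose and 1 fell. No heart muscle, squamous, liver or erythroid marker was called. The part of these shifts in the Igfbp3 and Igfbp6 increases was not tested.

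**Figure D2:**
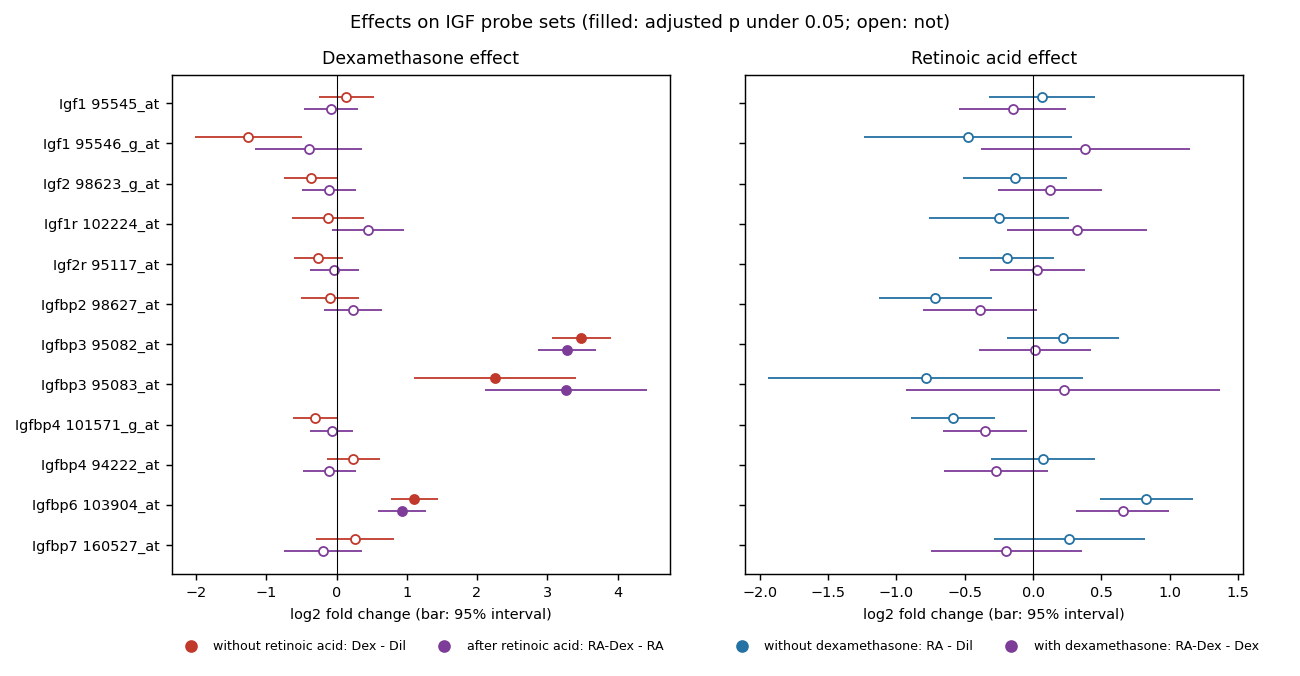
Log2 fold change with its 95% interval for each tested IGF probe set, for dexamethasone (left, Dex against Dil and RA-Dex against RA) and retinoic acid (right, RA against Dil and RA-Dex against Dex); filled points passed an adjusted p of 0.05. Filled points are those of Igfbp3 and Igfbp6 on the left, and none is filled on the right.

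Igfbp2, a circulating and tissue binding protein that is prominent in fetal life, had lower signals in the retinoic acid arrays. It read 2134 and 2072 in Dil, 1905 and 2036 in Dex, 1259 and 1300 in RA and 1790 and 1265 in RA-Dex. The 4 retinoic acid arrays were all below the 4 others, and array a of RA-Dex stood apart from the other 3, nearer to Dex. The averaged retinoic acid value of -0.55 ± 0.13 (SE) had an adjusted p of 0.286 and was not called, and the dexamethasone value was 0.07 ± 0.13 (SE, adjusted p = 0.826).

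Igfbp4, a binding protein that restrains IGF action until proteases cleave it, was measured by 3 probe sets that did not give 1 picture. On 101571_g_at the signal was 4330 and 4392 in Dil, 3656 and 3390 in Dex, 2917 and 2887 in RA, and 2860 and 2661 in RA-Dex. The retinoic acid arrays were again all below the others, with an averaged value of -0.47 ± 0.10 (SE, adjusted p = 0.169) that was not called. On 94222_at the signals lay between 987 and 1297, the groups with retinoic acid overlapped those without it, and the same effect was -0.10 ± 0.12 (SE, adjusted p = 0.956). Probe set 101570_at was not tested, since 4 of its 8 values were under the floor and the highest was 218. The log2 signals of 101571_g_at and 94222_at correlated at r = 0.05 over the 8 arrays. With no filter on low signal, 101571_g_at passed the threshold for retinoic acid with an adjusted p of 0.0467.

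Igfbp7, a secreted relative that binds IGFs weakly, read 441 and 483 in Dil, 608 and 504 in Dex, 460 and 667 in RA and 472 and 495 in RA-Dex. Both Dex arrays were above the Dil and RA-Dex arrays, and RA overlapped every group. The dexamethasone and retinoic acid values were both 0.03 ± 0.18 (SE). Across the 12 tested probe sets, all dexamethasone arrays lay above all others in 3 (the Igfbp3 and Igfbp6 probe sets), where 6.8% of all probe sets did so, and below in 1, of Igf1, where 7.78% did. All retinoic acid arrays lay below the others in 2 (Igfbp2 and Igfbp4 101571_g_at), against 1.48% of all probe sets, and above in none, against 0.835%.

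Of the ligands, Igf1, the main postnatal growth factor, gave unlike readings on its 2 probe sets. On 95545_at the signals were 1532 and 1805 in Dil, 1813 and 1837 in Dex, 1890 and 1603 in RA and 1798 and 1508 in RA-Dex. Both Dex arrays were slightly above the Dil and RA-Dex arrays, RA overlapped every group, and the dexamethasone value was 0.03 ± 0.12 (SE, adjusted p = 0.937). On 95546_g_at they were 470 and 588 in Dil, 161 and 301 in Dex, 369 and 385 in RA and 313 and 262 in RA-Dex, so that every dexamethasone array was below every other. The averaged value there was -0.83 ± 0.25 (SE, adjusted p = 0.068), not called, and it was -1.26 ± 0.35 in Dex against Dil (adjusted p = 0.0859) and -0.40 ± 0.35 in RA-Dex against RA (adjusted p = 0.649). With Dex array b left out, the averaged value was -1.06 and passed the threshold (adjusted p = 0.0317). The log2 signals of the Igf1 probe sets correlated at r = -0.119.

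**Figure D3:**
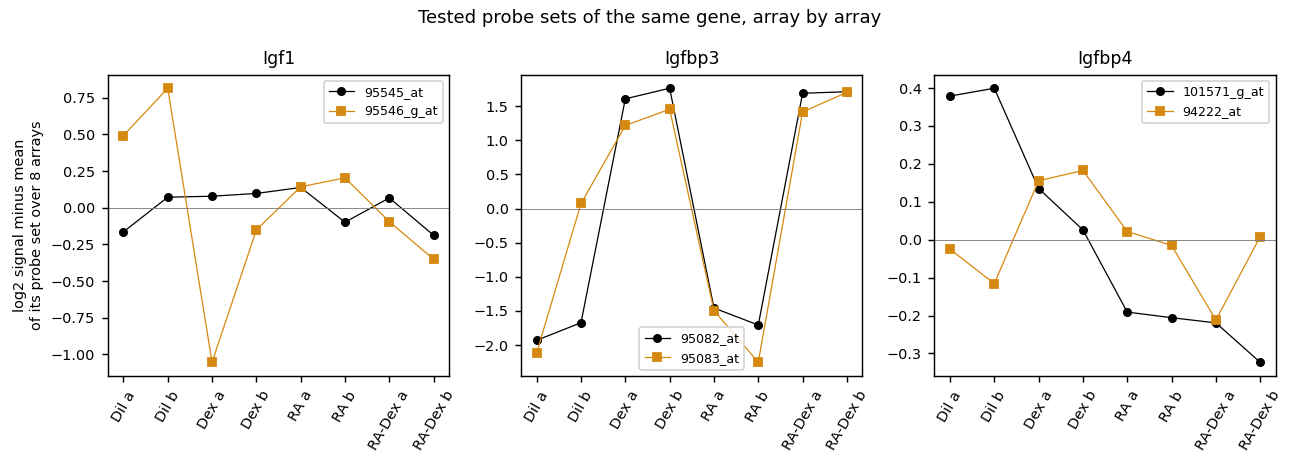
Log2 signal on each array for genes with several tested probe sets (Igf1, Igfbp3 and Igfbp4), each centred on its own mean over the 8 arrays; lines join the arrays of a probe set. The Igfbp3 probe sets both read higher on the dexamethasone arrays, while those of Igf1 and Igfbp4 show little relation (r = -0.119 and 0.05).

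Igf2, the imprinted growth factor of fetal life, was measured by 98623_g_at at 8126 and 8036 in Dil, 5663 and 6933 in Dex, 8564 and 6340 in RA and 7413 and 6305 in RA-Dex. The Dil arrays were above both dexamethasone groups, but RA ran from the highest signal of all to one below array b of Dex. The dexamethasone value was -0.24 ± 0.12 (SE, 95% interval -0.51 to 0.03, adjusted p = 0.304), and the retinoic acid value was 0.00 ± 0.12 (SE). The other Igf2 probe set, 98622_at, was under the floor on all 8 arrays, at 12.2 to 34.3, and was not tested.

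Neither receptor passed the test. Igf1r read 2690 and 3770 in Dil, 2370 and 3600 in Dex, 2888 and 2485 in RA and 4064 and 3284 in RA-Dex, with the arrays of Dil and of Dex differing by more than the group means did. Its dexamethasone value was 0.16 ± 0.16 (SE, 95% interval -0.20 to 0.52, adjusted p = 0.649). Igf2r read 3392 and 3159 in Dil, 2807 and 2665 in Dex, 3189 and 2574 in RA and 2881 and 2713 in RA-Dex. The value there was -0.15 ± 0.11 (SE, 95% interval -0.39 to 0.10, adjusted p = 0.516).

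Both Dil arrays exceeded all others for 3 of the 12 tested member probe sets (Igf1 95546_g_at, Igfbp2 and Igfbp4 101571_g_at), where 6.2% of all tested probe sets did so. Summed marker signals of fibroblasts (14 markers) were also highest in Dil, at 83100 and 83890 against 70710 to 77380 elsewhere, as were those of smooth muscle (7 markers), at 33370 and 34820 against 24960 to 30500. Both Dil arrays were highest for 5 of the 14 fibroblast markers, of which 13 were tested, and 3 of the 7 smooth muscle markers. Collagen genes such as Col1a1 (21882 and 25430 in Dil, 17319 to 21021 elsewhere) make up much of the fibroblast sum. Pdgfra was at 2963 and 2828 in Dil, higher with dexamethasone, at 4304 to 4870, and lower in RA, at 2452.3 and 1849.5. Meox2 was at 2754.4 and 2590.4 in Dil and 4000.8 and 2584.2 in RA, against 658.5 to 801.8 with dexamethasone. None of these markers was at the floor on all arrays. Their part in the lower values of those 3 probe sets was not tested. The increases in Igfbp3 and Igfbp6 were also called in RA-Dex against RA. That fold change uses no Dil signal, but the Dil arrays enter the variance of the shared fit. With both Dil arrays left out, 2 member genes were called as higher in that comparison. The part of the marker shifts in these increases was not tested.

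By comparison, 2 member genes rose in Dex against Dil (3.23% of all probe sets called, 2% as higher) and 2 in RA-Dex against RA (3.5% called, 2.28% as higher), Igfbp3 and Igfbp6 in each. No member was called in RA against Dil, where 0.0274% of all probe sets were called and 7.99% had an unadjusted p under 0.05, nor in RA-Dex against Dex (0.0958% and 4.13%). None was called for the interaction either (0.0137% and 5.6%). At an unadjusted p under 0.05 in limma the member genes numbered 3, 2 and 0 in these comparisons. A missed threshold with 2 arrays a group does not show equal levels. Without Dex array b the adjusted p of Igfbp6 in Dex against Dil was 0.0516, and without RA-Dex array a it was 0.0878 in RA-Dex against RA, so that neither was called.

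The genes whose log2 signal followed each called binding protein most closely over the 8 arrays are given as a description, since all share the treatment groups. For Igfbp3 on 95082_at these were Ddit4 (r = 0.996), Fst, the activin-binding follistatin (r = 0.992), and Map3k6 (r = 0.991). For 95083_at they were Slc35d1 (r = 0.974), Ndrg2 (r = 0.967) and Cds2 (r = 0.958). For Igfbp6 they were Man2a1, a Golgi mannosidase (r = 0.979), Tprgl (r = 0.968) and Lipa, the lysosomal acid lipase (r = 0.959). The lists for the Igfbp3 probe sets had no gene in common.

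Other genes of the pathway were counted from 3 lists that held 74 genes, of which 54 had a probe set of their own and 37 were tested. With dexamethasone 4 rose and 2 fell, where 4.26% of all probe sets were called as higher and 3.57% as lower. The median log2 change was 0.05, against -0.03 for all probe sets. In Dex against Dil 4 rose and none fell, where 3.23% of all probe sets were called, 2% as higher. In RA-Dex against RA 3 rose and none fell, where 3.5% were called, 2.28% as higher. With retinoic acid averaged, in RA against Dil, in RA-Dex against Dex and for the interaction none was called.

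None of the 7 tested hormones, carriers and proteases (of 19 listed) passed in any comparison. Adam12, a protease known to cleave Igfbp3 and Igfbp5, read 568 and 337 in Dil, 225 and 133 in Dex, 376 and 180 in RA and 152 and 134 in RA-Dex. The RA and Dex arrays overlapped and the dexamethasone value of -1.10 ± 0.34 (SE) was not called (adjusted p = 0.0781). Igfals, which completes the large complex of Igfbp3 in blood, and Igfbp1 were below the filter. Of 12 tested receptors and adaptors (of 20 listed) Socs1, a feedback inhibitor of cytokine receptors, fell by 0.90 on the log2 scale (SE 0.21, adjusted p = 0.0273), from 766 and 1121 in Dil and 894 and 612 in RA to 506 and 446 in Dex and 532 and 327 in RA-Dex. This call kept its side of the threshold in 7 of 15 alternatives, and leaving out Dil b, Dex a, Dex b, RA a or RA-Dex b each lost it (adjusted p = 0.0636 to 0.12). Irs2, a docking protein of the receptor, had a value of 1.08 ± 0.41 (SE, adjusted p = 0.158) with 1 Dil array under the floor.

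Of the 18 tested genes of the PI3 kinase, AKT, TOR and FOXO list (of 35 listed), 4 rose with dexamethasone and 1 fell. Over all probe sets 4.26% were called as higher and 3.57% as lower. Ddit4, an inhibitor of the TOR complex, read 782 and 774 in Dil and 765 and 844 in RA, against 3513 and 3522 in Dex and 3604 and 3478 in RA-Dex, an increase of 2.16 ± 0.11 (SE, adjusted p = 1.49e-06). Sesn1, which also restrains TOR, rose by 1.51 ± 0.11 (SE, adjusted p = 1.55e-05). Its levels in the dexamethasone arrays were 3136 to 3881 and in the others 1144 to 1377. Foxo3, a transcription factor held out of the nucleus by AKT, read 2128 and 2150 in Dil, 5252 and 4898 in Dex, 1334 and 2050 in RA and 5421 and 5644 in RA-Dex, a rise of 1.49 ± 0.14 (SE, adjusted p = 6.78e-05).

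Sgk1, a kinase related to AKT and a known glucocorticoid target, rose by 0.61 ± 0.10 (SE, adjusted p = 0.00256), with dexamethasone arrays at 5352 to 5894 and the others at 3494 to 4044. Akt2, the AKT kinase of insulin-responsive tissues, fell by 0.50 (SE 0.13, adjusted p = 0.036), from 1700 to 2178 in the arrays without dexamethasone to 1204 to 1471 with it. The Akt2 call was kept in 4 of 15 alternatives, and without any single array other than RA a it was lost (adjusted p = 0.0751 to 0.142). For Akt1 the value was -0.40 ± 0.11 (SE) and the call was missed (adjusted p = 0.0542). All 4 genes that rose showed no overlap between arrays with and without dexamethasone, where 6.8% of all probe sets lay higher in this way. They were picked by a comparison of the same arrays, so this adds no support to the calls.

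**Figure D4:**
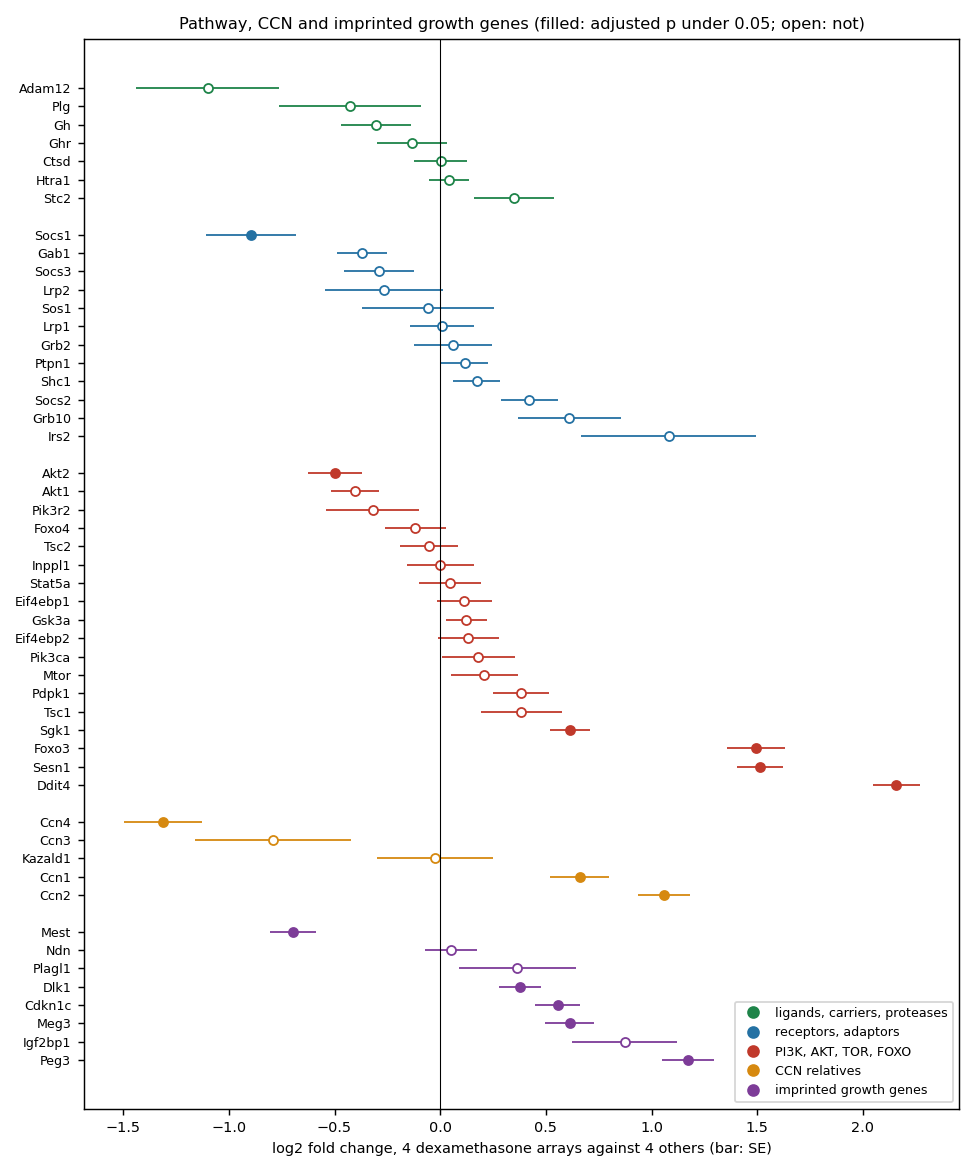
Dexamethasone effect (log2 fold change, bars are SE) on the tested genes of the pathway lists, the CCN relatives and the imprinted growth genes; filled points passed an adjusted p of 0.05. Ddit4, Sesn1 and Foxo3 lie farthest to the right, and Ccn4 farthest to the left among the filled points.

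The CCN proteins are matrix-associated factors that carry a domain related to the IGF-binding one. Of 5 tested relatives (of 10 listed), 2 rose with dexamethasone and 1 fell. Beside these, 4.26% of all probe sets were called as higher and 3.57% as lower. Ccn2, known as connective tissue growth factor, read 2596 and 2054 in Dil, 5076 and 5418 in Dex, 3284 and 2635 in RA and 5190 and 6050 in RA-Dex, an increase of 1.06 ± 0.12 (SE, adjusted p = 3.7e-04). Ccn1 rose by 0.66 ± 0.14 (SE, adjusted p = 0.0152), with its arrays at 617 and 705 in Dex but 1048 and 1150 in RA-Dex, against 518 to 573 in the others. Leaving out Dil b, Dex b or RA-Dex b took its adjusted p to 0.0504, 0.0718 and 0.0819. Ccn4 went the other way, from 711 and 608 in Dil and 677 and 668 in RA to 228 and 312 in Dex and 286 and 252 in RA-Dex, a fall by 1.31 on the log2 scale (SE 0.19, adjusted p = 0.00137).

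Among imprinted growth genes and Igf2 RNA-binding factors, 8 of 13 were tested, 4 rose with dexamethasone and 1 fell. The shares of all probe sets called were 4.26% as higher and 3.57% as lower. Peg3, an imprinted zinc finger gene, read 4190 and 3319 in Dil, 8695 and 7224 in Dex, 3896 and 4387 in RA and 8883 and 10962 in RA-Dex, a rise of 1.17 ± 0.12 (SE, adjusted p = 1.7e-04). Meg3, a long noncoding RNA, rose by 0.61 ± 0.12 (SE, adjusted p = 0.00904), Cdkn1c, a cell cycle inhibitor, by 0.56 ± 0.11 (SE, adjusted p = 0.00966), and Dlk1, the neighbour of Meg3 on the chromosome, by 0.38 ± 0.10 (SE, adjusted p = 0.0437). Dlk1 was at 6069 and 7223 in Dil and 6602 and 6111 in Dex, which overlapped, and at 4578 and 4370 in RA against 8284 and 7462 in RA-Dex. Its call was kept in 4 of 15 alternatives, and without any single array other than Dil b it was lost (adjusted p = 0.063 to 0.17). Leaving out Dex a took Meg3 to an adjusted p of 0.0549, and leaving out Dex b took Cdkn1c to 0.0594. Mest, an imprinted gene of fetal mesoderm, fell by 0.70 (SE 0.11, adjusted p = 0.0025), from 3874 and 3362 in Dil and 2106 and 2153 in RA to 1860 and 1927 in Dex and 1579 and 1518 in RA-Dex. Without both Dil arrays the adjusted p of Mest was 0.18. The fall in Mest was called in Dex against Dil but not in RA-Dex against RA, and the difference of 0.47 between them was not called (adjusted p = 0.886). H19, the imprinted neighbour of Igf2, shared its probe set with another gene and has no value.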

How the data were processed

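Per the series matrix, the authors deposited 1 intensity per probe set and array, on a linear scale. Trimmed means show that each array had been scaled, by software that the sources used here do not name. Of 12488 probe sets 66 controls were left out. Signals under 85.3 (the pooled 25th percentile) were raised to it, log2 was taken, and 7309 probe sets with a mean above a signal of 200.8 (the 40th percentile) were tested. Symbols came from the array annotation of 2016, updated by Entrez ID for 10817 of 10833 probe sets with 1 symbol; 396 had several and 1193 none, and no gene was named from a probe set with several.

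All arrays entered 1 fit in limma 3.58.1 (R 4.3.3) with a mean per group and eBayes with an intensity trend, two-sided, with 4 residual and 6.69 prior degrees of freedom, and Benjamini-Hochberg adjustment over the 7309 probe sets of each of 7 contrasts. In simulated data for dexamethasone averaged on 7309 probe sets, 74 of 100 changes of 1 on the log2 scale and 95 of 100 changes of 2 were recovered, with 6 false calls. The members, gene lists and tests were chosen with earlier results of these data known. Named were all members, the listed genes past the threshold for dexamethasone, retinoic acid or the interaction, H19, Fkbp5, Zbtb16, and the 3 genes most correlated with each called member; Adam12, Irs2, Igfals, Igfbp1, Akt1 and single cell type markers were named after their values were seen. Where a gene had several probe sets, the brightest stood for it in counts of genes. Alternatives were quantile normalization, no filter, a filter at the 60th percentile, an added pseudocount instead of a floor, a variance model without intensity trend, the replicate letter as a block, probe sets averaged by gene, each array left out, and both Dil arrays left out; the same alternatives were applied to the pathway genes as an addition made after the data were seen. Promoter sequences are RefSeq's (GRCm38.p6); protein sequences were not used here. The number of arrays limits the precision.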

Additional observations from a re-analysis of the deposited data

Results flagged for a closer look

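In groups of 4 arrays that share a treatment, the array farthest from the rest was compared with the range of its group, and in 6 of 112 such groups, over 28 probe sets, its gap, as a share of the range, exceeded Dixon's 95% critical value. Chance gives about 1 in 20 groups. Igf1 on 95545_at had RA-Dex b low among the dexamethasone arrays (gap 0.892 of the range) and Dil a low among the arrays without retinoic acid (0.902). Igfbp2 had RA-Dex a high among the retinoic acid arrays (0.909), at 1790 against 1259 to 1300. Igfbp4 on 94222_at had RA-Dex a low among the retinoic acid arrays (0.844). In the arrays without dexamethasone, RA a was low for Foxo3 (0.9) and high for Sgk1 (0.833).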

How the results depend on the processing

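Over 16 alternatives the count of member genes called with dexamethasone averaged stayed at 2, and the counts for RA-Dex against Dex stayed at 0, as did those for RA against Dil and the interaction over 15. For Igfbp3 on 95082_at the dexamethasone value ran from 3.09 to 3.45, and for Igfbp6 from 0.93 to 1.06, each past the threshold in 15 of 15. The retinoic acid count went from 1 to 0 with no intensity trend, without both Dil arrays and with probe sets averaged by gene. With each array left out it ran from 0 to 1. The counts in Dex against Dil and RA-Dex against RA ran from 1 to 2. With no filter the retinoic acid count was 1, but the gene was Igfbp4 (adjusted p = 0.0467) and not Igfbp6 (0.0682). The cause was not tested. No single value of a member or pathway gene changed sign past the threshold. Of the member values 24 dropped out of the called set and 2 entered it, and 1184 kept their side. Of the pathway values 102 dropped out and 1061 kept their side. Calls lost when both Dil arrays were left out were those for Socs1 (adjusted p = 0.196), Akt2 (0.131), Meg3 (0.0606), Sgk1 (0.082) and Mest (0.18). The count of pathway genes called with dexamethasone was 3 to 7 over 15 alternatives, and 3 without both Dil arrays. Of all probe sets, 572 were called with dexamethasone, but 349 with no filter, 361 without Dex a, 369 without Dex b, 309 without RA-Dex b and 253 without both Dil arrays. Over the same alternatives the count ran from 80 to 273 in Dex against Dil (236), from 81 to 275 in RA-Dex against RA (256), from 2 to 23 for retinoic acid averaged (11), from 0 to 16 in RA against Dil (2), from 2 to 16 in RA-Dex against Dex (7) and from 1 to 22 for the interaction (1).

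The replicate letters did not pair the arrays across all groups: deviations of same-lettered arrays from their group means correlated at -0.221 to 0.136 over the 6 pairs of groups. The value was 0.136 for Dil with Dex and 0.103 for RA with RA-Dex, and -0.221 to -0.0981 for the other pairs. Whether the arrays formed blocks other than by letter was not tested. With the letter as a replicate block the retinoic acid count was 0, and no other count of member genes changed.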
